A study of Homo sapiens with 15 samples.

Results

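Transcripts of 10 genes of the Krüppel-like factor (KLF) family, KLF2, KLF3, KLF4, KLF5, KLF6, KLF7, KLF9, KLF10, KLF11 and KLF13, were followed through 15 RNA sequencing libraries of PATU-8988T cells, a cell line long in culture that comes from a human pancreatic cancer. They were chosen by gene symbol, and each symbol matched 1 of the 58676 genes in the count table. KLF proteins bind GC-rich and CACCC sequences through zinc fingers at their C-terminal end and differ mainly in the part before them, which recruits coactivators or corepressors. KLF2, KLF4, KLF5, KLF6 and KLF7 act mostly as activators, although KLF4 also represses. KLF3 recruits the corepressor CtBP, and KLF9, KLF10, KLF11 and KLF13 can recruit SIN3A and its histone deacetylases. Several of these genes are induced rapidly by growth factors, cytokines or stress and have short-lived mRNAs. In pancreatic cells KLF4 and KLF5 are known for roles in the identity and early transformation of ductal and acinar cells, and KLF10 and KLF11 as early targets of TGF-beta that restrain epithelial growth.

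The cells received THZ1 or YKL-5-124, each at 100 nM for 4 h or 24 h, or the vehicle DMSO at 0.1%. The series presents both compounds as inhibitors of CDK7, the TFIIH kinase, which acts on the tail of RNA polymerase II and switches on further kinases of its family. The 5 groups of 3 libraries were THZ1 4 h, THZ1 24 h, YKL-5-124 4 h, YKL-5-124 24 h and DMSO. No time is given for the DMSO libraries, so 1 set of 3 was set against every treated group, and time of treatment cannot be told apart from time in culture. Replicates are numbered, but no source says that they were separate cultures, so a p-value here reflects the spread among these libraries alone, which may be technical. All groups share 1 cell line, so nothing here compares lines.

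Libraries held 15567057 to 22869590 counts, and levels are given as CPM after TMM scaling, that is, each count relative to the scaled total of its library. Ribosomal protein mRNAs took 22.2% ± 1.2 of the counts at THZ1 24 h (SD, n = 3), against 8 to 12.9% as group means elsewhere, and mitochondrial transcripts took 3.46 to 4.44%, against 0.862 to 2.08% in the other libraries. The slope of log2 CPM on log2 transcript length was 0.435 to 0.516 at THZ1 24 h, against 0.753 to 0.94 in the other libraries. Values under other scalings are given beside the results they change, and the part of the mitochondrial share and of the slope in differences between groups was not tested. Because the RNA is from bulk cultures, fewer cells with a transcript and less of it per cell cannot be told apart. KRT8 averaged 1060 CPM and VIM 168 CPM in DMSO, while the ductal keratin KRT19 had 0 counts there and CDH1 averaged 0.237 CPM. The 6 endothelial markers summed to at most 2.19 CPM in any library. The 6 leukocyte markers, 3 of them at 0 in all 15 libraries, summed to 0.966 to 2.76 CPM at THZ1 24 h and 0.25 to 4.27 CPM at YKL-5-124 24 h, against 0.0774 to 0.169 CPM in DMSO. Most of the 4.27 CPM came from LYZ, at 3.57 CPM in that library and 0 CPM in the rest of its group. The 5 fibroblast markers summed to 0.583 to 1.33 CPM at THZ1 4 h, 1.69 to 7.86 CPM at THZ1 24 h, 0.62 to 2.77 CPM at YKL-5-124 4 h and 0.417 to 3.99 CPM at YKL-5-124 24 h, against 0.133 to 0.59 CPM in DMSO, and the part of these traces in the KLF values was not tested.

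Promoter sequences are shown for 4 of the 5 members that had exactly 1 promoter window. They run from KLF2, the largest decrease at THZ1 4 h, to KLF13, the smallest. The remaining member, KLF9, is described below but not shown. Each is the 250 bases before the gene's start in RefSeq (GRCh38.p14), printed 5′ to 3′ on the strand of the gene. That start can differ from the start in the count table. By the count table's coordinates the KLF4 window lies inside the KLF4 gene, and the KLF2 and KLF6 windows overlap the starts of their genes. The windows are chr19:16324576-16324825 on the plus strand for KLF2, chr9:107489770-107490019 on the minus strand for KLF4, chr10:3785210-3785459 on the minus strand for KLF6 and chr15:31326585-31326834 on the plus strand for KLF13. Capitals mark matches on either strand to TATAA, to CCAAT, to TGACG (part of the cAMP response element) and to CACCC (a KLF box).
KLF2: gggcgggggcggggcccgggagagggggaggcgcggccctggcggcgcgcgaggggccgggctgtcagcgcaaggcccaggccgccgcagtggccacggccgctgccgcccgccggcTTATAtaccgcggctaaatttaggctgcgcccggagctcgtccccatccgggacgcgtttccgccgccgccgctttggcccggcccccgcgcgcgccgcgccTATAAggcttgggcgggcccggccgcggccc
KLF4: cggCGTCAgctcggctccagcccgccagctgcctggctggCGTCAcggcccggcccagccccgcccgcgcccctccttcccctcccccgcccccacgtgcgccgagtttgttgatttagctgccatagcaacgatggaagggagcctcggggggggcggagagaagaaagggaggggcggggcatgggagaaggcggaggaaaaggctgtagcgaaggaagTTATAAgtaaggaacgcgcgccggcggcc
KLF6: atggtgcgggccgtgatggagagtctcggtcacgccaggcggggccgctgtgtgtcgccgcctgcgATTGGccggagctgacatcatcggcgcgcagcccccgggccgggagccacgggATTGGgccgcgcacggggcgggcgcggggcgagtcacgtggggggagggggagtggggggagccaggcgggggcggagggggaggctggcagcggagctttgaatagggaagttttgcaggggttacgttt
KLF13: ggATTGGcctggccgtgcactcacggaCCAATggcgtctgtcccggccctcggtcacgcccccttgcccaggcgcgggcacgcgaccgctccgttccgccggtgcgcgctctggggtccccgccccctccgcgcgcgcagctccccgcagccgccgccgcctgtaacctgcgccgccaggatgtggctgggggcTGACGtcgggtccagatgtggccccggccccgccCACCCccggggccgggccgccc

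KLF2 and KLF4 each had 2 matches to TATAA, found in 18.9% of the 35116 windows of this length; the 2 in KLF4 overlap on opposite strands. KLF6 and KLF13 had none, and each had 2 matches to CCAAT, found in 32% of windows. KLF4 had 2 matches to TGACG and KLF13 had 1, against 21.2% of windows with any. The GC box GGGCGG, left in lower case, matched 4 times in KLF2 and KLF4, 3 times in KLF13 and 2 times in KLF6, and 42.6% of windows held it. CACCC was present only in KLF13 among the 4, and in 54.7% of windows. The KLF9 window, which is not shown, had a GC content of 32.4%, against 69.2 to 80% in the 4 shown. It held 1 match to TATAA. It also held 2 matches to CCAAT, as did KLF6 and KLF13. The other motifs, including the GC box, had no match in it. At THZ1 4 h the log2 fold change of KLF9 was -3.71, between those of KLF2 (-4.81) and KLF4 (-2.91). These are matches of letters and not sites of binding. The 3′ untranslated regions of all 10 members held the letters ATTTA, the core of AU-rich elements that shorten mRNA life, at 0.893 (KLF13) to 3.56 (KLF2) matches per kb in GENCODE release 29. Among 11975 genes 68.8% held it, with a median of 1.58 per kb.

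The DMSO cells already contained most of these transcripts. Per kb of exon, KLF10 had the highest level at 14.3 ± 1.86 CPM per kb (SD, n = 3). KLF6 at 8.72 ± 0.577 and KLF4 at 7.53 ± 1.28 CPM per kb came next and overlapped each other, and KLF3 followed at 5.52 ± 0.195 CPM per kb. KLF5 stood at 2.41 ± 0.0091 CPM per kb. KLF2, KLF11 and KLF13 lay at 1.67, 1.42 and 1.38 CPM per kb, with each neighbour overlapping the next, above KLF7 at 0.876. KLF9 was close to the detection limit at 0.0951 ± 0.0296 CPM per kb. KLF10 led in all 5 groups, although its range overlapped that of KLF6 at THZ1 4 h and that of KLF4 at YKL-5-124 24 h.

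**Figure D1:**
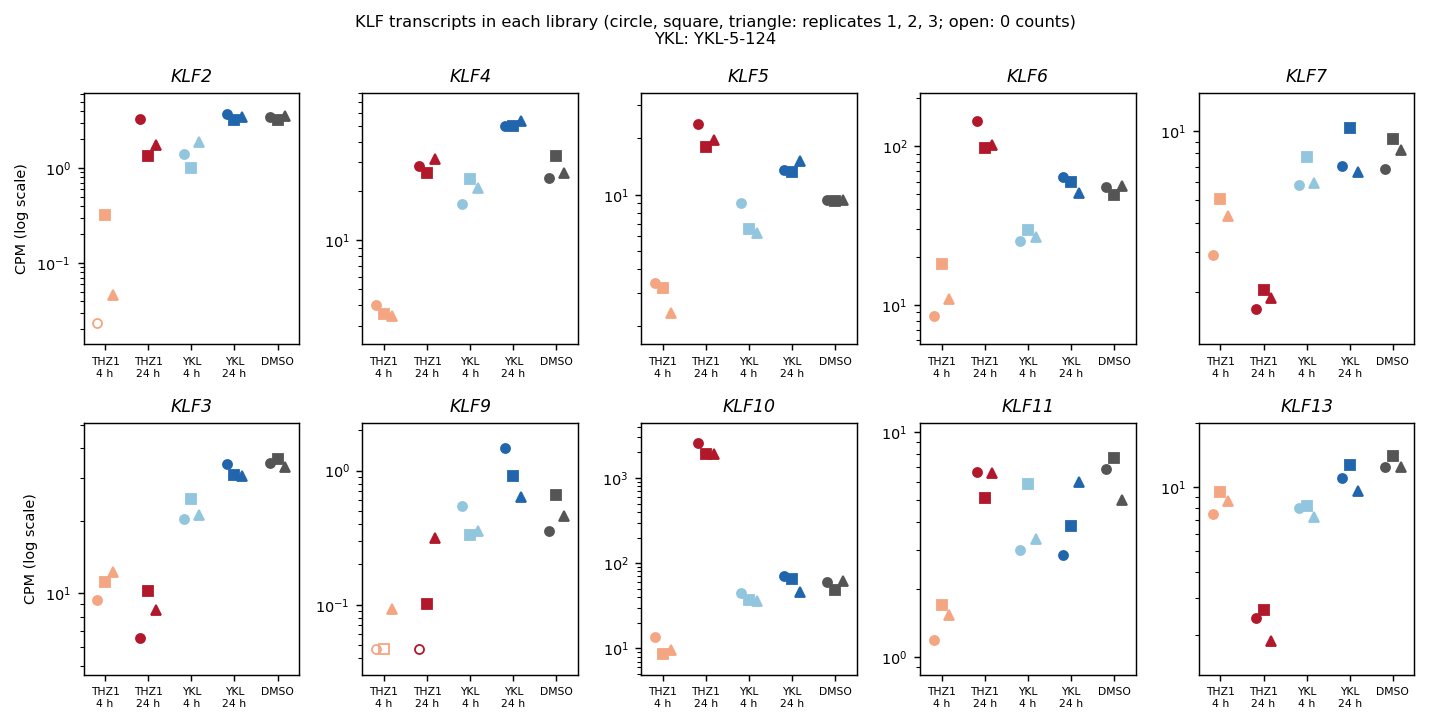
CPM of each of the 10 KLF genes on a log axis in the 15 libraries, 3 points for each of THZ1 4 h, THZ1 24 h, YKL-5-124 4 h, YKL-5-124 24 h and DMSO; open symbols are libraries with 0 counts, drawn below the lowest value. KLF10 lies at 1920 to 2560 CPM in THZ1 24 h and at 8.54 to 13.6 CPM in THZ1 4 h, against 48.6 to 62.6 CPM in DMSO.

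After 4 h of THZ1 every one of the 10 members was lower than in DMSO, and for each all 3 THZ1 libraries lay below all 3 DMSO libraries. The share of all genes tested that were separated in this way was not counted. All 10 had an adjusted p under 0.05 in edgeR's quasi-likelihood F test, adjusted by the Benjamini-Hochberg method over 14461 genes. Of all genes tested, 25.1% were called lower and 16.9% higher. The split was 2439 higher and 3630 lower, and 583 higher and 4631 lower with library totals or 29 higher and 5516 lower with ribosomal protein mRNAs as the reference; all 10 members were called lower in each. The members' median log2 fold change was -2.12, against 0 for all genes tested.

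Among the activators the decrease was largest in KLF2, a regulator of quiescence in endothelial cells and lymphocytes. KLF2 had 0, 6 and 1 counts in the THZ1 4 h libraries, against 78, 82 and 83 counts in DMSO. The ratio of THZ1 4 h to DMSO from summed counts was 0.0338, with an exact 95% interval of 0.0135 to 0.0707 that covers counting error only. The fitted log2 fold change was -4.81 ± 0.56 (SE, adjusted p = 6.7e-06) and -6.84 without THZ1 4 h replicate 2, which held 6 of the 7 counts. KLF4, a factor of epithelial differentiation and of reprogramming to pluripotency, had 3.99, 3.55 and 3.44 CPM at THZ1 4 h, against 24, 32.8 and 25.8 CPM in DMSO. Its log2 fold change was -2.91 ± 0.17 (adjusted p = 4.78e-09), and the groups were far apart.

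KLF6, an immediate-early gene of injured tissue, had 8.49, 18.1 and 10.9 CPM at THZ1 4 h, against 55.2, 49.5 and 55.9 CPM in DMSO (log2 fold change -2.1 ± 0.23, adjusted p = 2.53e-06). KLF5, which promotes proliferation of epithelial cells, had 3.37, 3.18 and 2.33 CPM at THZ1 4 h, against 9.37, 9.32 and 9.39 CPM in DMSO (log2 fold change -1.66 ± 0.19, adjusted p = 4.55e-06). KLF7, best known from developing neurons, fell less. It had 2.89, 5.09 and 4.28 CPM at THZ1 4 h, against 6.84, 9.25 and 8.26 CPM in DMSO, a log2 fold change of -0.99 ± 0.23 (adjusted p = 0.00301; -1.49 with ribosomal protein mRNAs as the reference).

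The repressor KLF3 had 9.35, 11.1 and 12.2 CPM at THZ1 4 h, against 34.8, 35.9 and 33.5 CPM in DMSO, a log2 fold change of -1.68 ± 0.15 (adjusted p = 3.95e-07). An antisense gene, KLF3-AS1, overlaps it and had 77 counts over all libraries, against 7584 for KLF3. The strand setting of the counting is not given, so the antisense share of the KLF3 counts is not known. Of the SIN3A-binding members, KLF10 fell to 13.6, 8.54 and 9.59 CPM at THZ1 4 h, against 60.2, 48.6 and 62.6 CPM in DMSO (log2 fold change -2.43 ± 0.2, adjusted p = 1.74e-07). KLF11, its closest relative, had 1.19, 1.7 and 1.54 CPM at THZ1 4 h, against 6.88, 7.7 and 4.97 CPM in DMSO (log2 fold change -2.14 ± 0.33, adjusted p = 9.17e-05). For both genes the THZ1 4 h libraries lay far below the DMSO libraries.

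KLF13, known as a regulator of the chemokine CCL5 in T cells, changed least. It had 7.5, 9.49 and 8.61 CPM at THZ1 4 h, against 12.5, 14 and 12.4 CPM in DMSO, a log2 fold change of -0.61 ± 0.16 (adjusted p = 0.00613; -1.12 with ribosomal protein mRNAs as the reference). KLF9, a glucocorticoid-responsive factor, had 0, 0 and 2 counts at THZ1 4 h, against 8, 17 and 11 counts in DMSO. Its count ratio was 0.0652 (95% interval 0.00761 to 0.253). The fitted change of -3.71 ± 0.85 (adjusted p = 0.00257) became -6.39 without THZ1 4 h replicate 3. KLF9 passed the filter on low counts through YKL-5-124 and DMSO libraries alone and did not pass it with only THZ1 4 h and DMSO in the fit, which leaves 9 members, all lower.

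**Figure D2:**
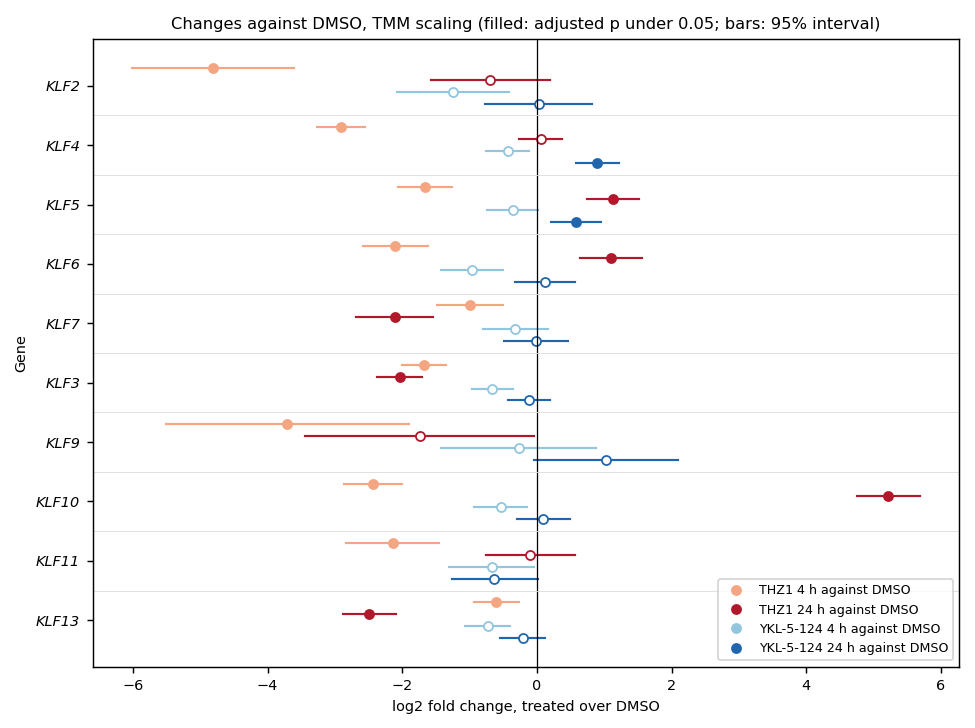
Log2 fold change of each KLF gene over DMSO with 95% intervals for THZ1 4 h, THZ1 24 h, YKL-5-124 4 h and YKL-5-124 24 h under TMM scaling; filled points have an adjusted p under 0.05. All 10 THZ1 4 h points lie below 0, whereas the THZ1 24 h points run from -2.49 for KLF13 to 5.22 for KLF10; those of KLF4, KLF5 and KLF6 fall to 0.00 or below it with library totals or ribosomal protein mRNAs as the scale.

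By 24 h of THZ1 the family had separated. KLF10, KLF5 and KLF6 were higher than in DMSO, KLF3, KLF7 and KLF13 were lower, and KLF2, KLF4, KLF9 and KLF11 did not pass. Of all genes tested, 32.3% were called higher and 44% lower, and the members' median was -0.39, against -0.37 for all genes tested. The split of 4668 higher and 6356 lower genes was 5457 and 5471 with RLE factors, 5615 and 5286 with upper-quartile factors, 2266 and 9384 with library totals, and 573 and 11731 with ribosomal protein mRNAs as the reference. The counts of 3 higher and 3 lower therefore sit near the shares for all genes, and the size of the KLF10 change stands out more than the number of calls.

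KLF10 rose to 21188, 18833 and 18411 counts, or 2560, 1920 and 1920 CPM, at THZ1 24 h, against 1356, 1257 and 1485 counts, or 60.2, 48.6 and 62.6 CPM, in DMSO. The log2 fold change was 5.22 ± 0.22 (SE, adjusted p = 2.1e-11), a 37.4-fold increase, and 205th from the highest among the 14461 genes. KLF10 alone took 0.104 to 0.136% of all counts at THZ1 24 h, against 0.00616 to 0.00724% in DMSO, and it ranked 158 by mean CPM at THZ1 24 h and 3324 in DMSO. Across the scalings and DESeq2 its log2 fold change was 3.04 to 5.62, and it was called higher in each.

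KLF6 had 145, 98.1 and 102 CPM at THZ1 24 h, against 55.2, 49.5 and 55.9 CPM in DMSO (log2 fold change 1.1 ± 0.21, adjusted p = 0.000243). KLF5 had 24, 18 and 19.6 CPM at THZ1 24 h, against 9.37, 9.32 and 9.39 CPM in DMSO (1.13 ± 0.18, adjusted p = 3.08e-05). Both rises depend on the scale. With library totals the log2 fold changes were -0.03 for KLF6 and 0.00 for KLF5, and with ribosomal protein mRNAs as the reference they were -1.09 and -1.07. KLF4 had 28.5, 25.7 and 31.7 CPM at THZ1 24 h, against 24, 32.8 and 25.8 CPM in DMSO, so the groups overlapped (log2 fold change 0.06, 95% interval -0.27 to 0.38). KLF4 was called higher at 0.38 with RLE factors and lower at -1.08 with library totals.

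The decreases of KLF3, KLF7 and KLF13 held under every scaling. KLF3 had 6.52, 10.2 and 8.56 CPM at THZ1 24 h, against 34.8, 35.9 and 33.5 CPM in DMSO (log2 fold change -2.04 ± 0.16, adjusted p = 1.17e-08; -4.23 to -1.64 across the scalings). KLF7 had 1.69, 2.04 and 1.88 CPM at THZ1 24 h, against 6.84, 9.25 and 8.26 CPM in DMSO (-2.11 ± 0.27, adjusted p = 3.17e-06; -4.31 to -1.72). KLF13 had 2.42, 2.65 and 1.88 CPM at THZ1 24 h, against 12.5, 14 and 12.4 CPM in DMSO (-2.49 ± 0.19, adjusted p = 7.4e-09; -4.69 to -2.09). For each of the 3, the THZ1 24 h libraries lay below the DMSO libraries.

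KLF2 at THZ1 24 h had 3.26, 1.33 and 1.77 CPM, against 3.46, 3.17 and 3.5 CPM in DMSO, and overlapped them (log2 fold change -0.69, adjusted p = 0.144; -1.09 and adjusted p = 0.0487 without THZ1 24 h replicate 1). KLF11 had 6.64, 5.1 and 6.57 CPM, against 6.88, 7.7 and 4.97 CPM in DMSO, and also overlapped (-0.1, 95% interval -0.75 to 0.56). KLF9 had 4 counts over the 3 THZ1 24 h libraries, against 36 in DMSO, a count ratio of 0.29 (95% interval 0.0749 to 0.808; adjusted p of the fit 0.059, and 0.0251 without THZ1 24 h replicate 3). With library totals KLF2, KLF9 and KLF11 were called lower at -1.81, -2.82 and -1.23.

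**Figure D3:**
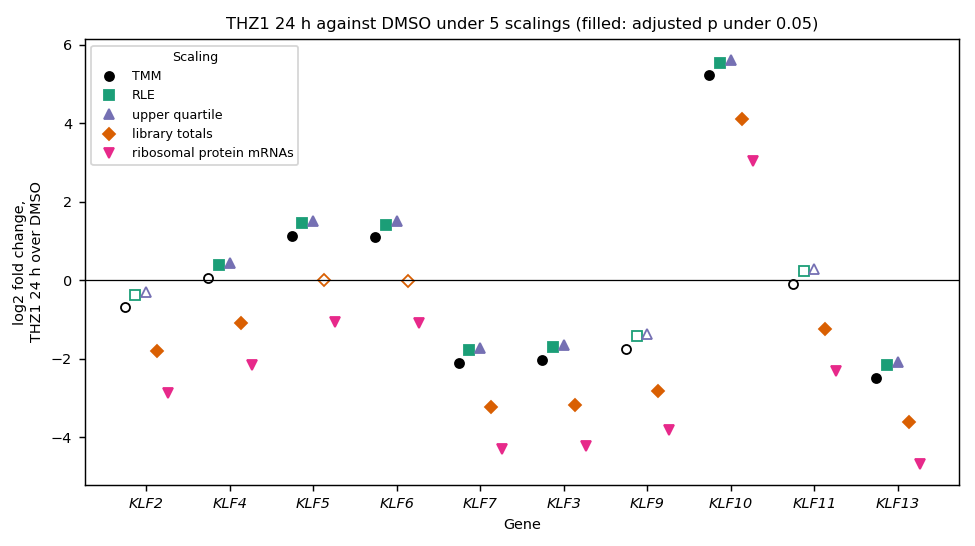
Log2 fold change of each KLF gene at THZ1 24 h over DMSO under TMM, RLE, upper-quartile, library total and ribosomal protein scaling; filled points have an adjusted p under 0.05. KLF10 stays above 0 at 3.04 to 5.62 and KLF3, KLF7 and KLF13 stay below 0, while KLF4, KLF5 and KLF6 cross 0 or reach 0.00 with library totals and ribosomal protein mRNAs.

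At 4 h of YKL-5-124 the log2 fold changes over DMSO ran from -1.25 for KLF2 to -0.27 for KLF9. No member passed edgeR's test with adjustment, where 0.463% of all genes tested were lower and 0.0553% higher. DESeq2 called 4 (KLF2, KLF3, KLF6 and KLF13), all lower, where it called 299 genes lower and 78 higher in all. The median was -0.6, against 0 for all genes tested. In edgeR's test 7 of the 10 had an unadjusted p under 0.05. For 7 members every YKL-5-124 4 h library lay below every DMSO library. The share of all genes tested was not counted for either, so neither count can be judged against it. KLF6 had 25.5, 29.6 and 27 CPM at YKL-5-124 4 h, against 55.2, 49.5 and 55.9 CPM in DMSO (log2 fold change -0.97 ± 0.22, adjusted p = 0.0646). KLF13 had 7.98, 8.15 and 7.26 CPM at YKL-5-124 4 h, against 12.5, 14 and 12.4 CPM in DMSO (-0.73 ± 0.16, adjusted p = 0.0558). KLF3 had 20.3, 24.5 and 21.2 CPM at YKL-5-124 4 h, against 34.8, 35.9 and 33.5 CPM in DMSO (-0.66 ± 0.14, adjusted p = 0.063). None of these 3 pairs of groups overlapped.

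KLF2 had 1.39, 0.996 and 1.89 CPM at YKL-5-124 4 h, below the DMSO libraries at 3.46, 3.17 and 3.5 CPM (-1.25 ± 0.39, adjusted p = 0.208). KLF4, KLF5 and KLF10 also lay below DMSO without overlap, at log2 fold changes of -0.43, -0.36 and -0.54. KLF7, KLF9 and KLF11 overlapped DMSO, at -0.32, -0.27 and -0.67. With the length slope as a covariate 7 members were called, as were 932 genes in all, against 75 in the fit without it.

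At 24 h of YKL-5-124, KLF4 and KLF5 were higher than in DMSO and no member was called lower. Of all genes tested, 8.92% were called higher and 12.7% lower, and the members' median was 0.06, against -0.04. The split of 1290 higher and 1839 lower genes was 1759 and 1382 with upper-quartile factors, 2093 and 1186 with library totals, and 5075 and 203 with ribosomal protein mRNAs as the reference. KLF4 had 50.4, 50 and 53.8 CPM at YKL-5-124 24 h, against 24, 32.8 and 25.8 CPM in DMSO, a log2 fold change of 0.9 ± 0.15 (adjusted p = 0.000637), and was called higher under every scaling. KLF5 had 13.6, 13.3 and 15.2 CPM at YKL-5-124 24 h, against 9.37, 9.32 and 9.39 CPM in DMSO (0.58 ± 0.17, adjusted p = 0.027). These groups did not overlap, yet the KLF5 call was lost whichever of the 6 libraries was left out, at adjusted p of 0.0522 to 0.0902, and without the filter on low counts (adjusted p = 0.062).

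The other 8 members at YKL-5-124 24 h differed from DMSO by log2 fold changes of -0.63 to 1.02, and none passed under TMM; with ribosomal protein mRNAs as the reference KLF9 (1.52) and KLF10 (0.66) did. KLF9 stood highest of these with 42, 22 and 16 counts at YKL-5-124 24 h, against 8, 17 and 11 counts in DMSO (1.02 ± 0.5, adjusted p = 0.165), and the groups overlapped. KLF10 had 70.8, 65.5 and 46.5 CPM at YKL-5-124 24 h, against 60.2, 48.6 and 62.6 CPM in DMSO, a log2 fold change of 0.09 with a 95% interval of -0.3 to 0.49. KLF11 had 2.83, 3.83 and 6 CPM at YKL-5-124 24 h, against 6.88, 7.7 and 4.97 CPM in DMSO (-0.63, adjusted p = 0.149; -0.97 and adjusted p = 0.0456 without YKL-5-124 24 h replicate 3).

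The compounds were compared with each other at 100 nM at each of the 2 times. At 4 h, 9 members were lower with THZ1 than with YKL-5-124 and none was higher, where 21.9% of all genes tested were lower and 11.4% higher. The median difference was -1.39, against 0.01 for all genes tested. The split of 1649 higher and 3172 lower genes was 2524 and 2884 with RLE factors, 199 and 4168 with library totals, and 26 and 4461 with ribosomal protein mRNAs as the reference. KLF2 and KLF9 had the lowest ratios, both from few counts. KLF2 had 7 counts over the THZ1 4 h libraries against 106 over the YKL-5-124 4 h libraries, a count ratio of 0.0813 (95% interval 0.0319 to 0.174; fitted -3.56, and -5.60 without THZ1 4 h replicate 2). KLF4 averaged 3.66 ± 0.287 CPM with THZ1 and 20.5 ± 3.7 CPM with YKL-5-124 (SD, n = 3 each; log2 difference -2.48 ± 0.17 SE, adjusted p = 2.96e-08). KLF10 averaged 10.6 ± 2.66 CPM with THZ1 and 39.2 ± 4.66 CPM with YKL-5-124 (-1.89 ± 0.2, adjusted p = 2.77e-06).

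The exception at 4 h was KLF13, at 8.53 ± 1 CPM with THZ1 and 7.8 ± 0.47 CPM with YKL-5-124. Its log2 difference of 0.13 had a 95% interval of -0.21 to 0.47, which leaves room for a difference of that size. KLF7 was close to the threshold (-0.67 ± 0.23, adjusted p = 0.0375). Its call was lost without THZ1 4 h replicate 1 (-0.48), THZ1 4 h replicate 3 (-0.71), YKL-5-124 4 h replicate 2 (-0.52) or YKL-5-124 4 h replicate 3 (-0.72), with RLE factors, without the filter and with only these groups fitted. For KLF9, 2 counts with THZ1 stood against 31 with YKL-5-124, a ratio of 0.0795 (95% interval 0.00921 to 0.312; fitted -3.43, and -6.12 without THZ1 4 h replicate 3). KLF9 passed the filter on low counts through YKL-5-124 and DMSO libraries alone, so its call as lower is no independent support.

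At 24 h the difference between the compounds had both signs, with 3 members higher with THZ1 and 5 lower, where 31.8% of all genes tested were higher and 44.1% lower. That split of 4601 and 6376 genes was about even with RLE factors (5296 and 5411) and upper-quartile factors (5274 and 5467). It lay at 1998 and 9927 with library totals and 277 and 12946 with ribosomal protein mRNAs as the reference. The counts of 3 higher and 5 lower members sit near the shares for all genes. The members' median difference was -0.78, against -0.39 for all genes tested. KLF10 averaged 2130 ± 368 CPM with THZ1 and 60.9 ± 12.8 CPM with YKL-5-124, a log2 difference of 5.13 ± 0.22 (adjusted p = 2.31e-11; 2.38 to 5.44 across the scalings). KLF4 averaged 28.7 ± 3 CPM with THZ1 and 51.4 ± 2.1 CPM with YKL-5-124 (-0.84 ± 0.15, adjusted p = 0.000112; -3.63 to -0.53). KLF13, which did not separate the compounds at 4 h, averaged 2.32 ± 0.397 CPM with THZ1 and 11.2 ± 1.6 CPM with YKL-5-124 (-2.27 ± 0.19, adjusted p = 2.12e-08).

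KLF3 and KLF7 were likewise lower with THZ1 at 24 h, at log2 differences of -1.92 and -2.09. KLF9 was lower at -2.76, from 4 counts with THZ1 and 80 with YKL-5-124, a count ratio of 0.141 (95% interval 0.0375 to 0.375), and at -4.04 without THZ1 24 h replicate 3. Here too KLF9 had passed the filter on low counts only through YKL-5-124 and DMSO libraries, so its call is no independent support. KLF6 (0.98) and KLF5 (0.55) were higher with THZ1 under TMM. With library totals KLF6 had -0.30, which was not called, and KLF5 was called lower at -0.73; with ribosomal protein mRNAs as the reference both were called lower, at -1.79 and -2.25. The KLF5 call was also lost without the filter on low counts (0.44, adjusted p = 0.094). KLF2 (-0.71, 95% interval -1.6 to 0.17) and KLF11 (0.53, 95% interval -0.13 to 1.2) did not pass. KLF2 passed without THZ1 24 h replicate 1 (-1.12), without the filter (-0.82), and with library totals (-1.99) or ribosomal protein mRNAs as the reference (-3.49). KLF11 was called in each of the other scalings and with DESeq2, but in both directions. It was higher with THZ1 with RLE factors and DESeq2 (0.85 each) and upper-quartile factors (0.82), and lower with library totals (-0.76) and ribosomal protein mRNAs (-2.31). KLF11 also passed with the length slope as a covariate (0.57) and without YKL-5-124 24 h replicate 3 (0.86).

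**Figure D4:**
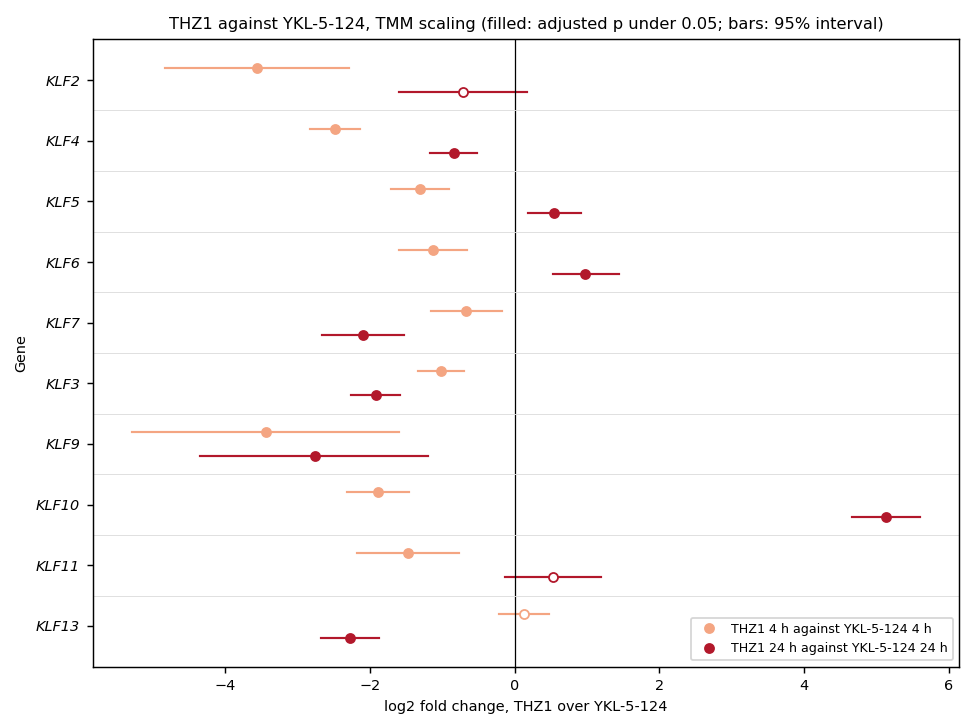
Log2 difference of THZ1 over YKL-5-124 for each KLF gene at 4 h and at 24 h with 95% intervals under TMM scaling; filled points have an adjusted p under 0.05. At 4 h 9 points lie below 0 and are called, with KLF13 at 0.13; at 24 h KLF10 reaches 5.13 and KLF13 lies at -2.27, and the signs of KLF5, KLF6 and KLF11 turn with library totals.

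Between 4 h and 24 h of THZ1, KLF10 rose most, to 2130 ± 368 CPM at 24 h, against 10.6 ± 2.66 CPM at 4 h (log2 fold change 7.66 ± 0.25, adjusted p = 8.72e-12). KLF2, KLF4, KLF5, KLF6 and KLF11 were also higher at 24 h, by 4.12, 2.97, 2.79, 3.2 and 2.05. The KLF2 value rests on 57 counts at 24 h, against 7 at 4 h, a count ratio of 18.1 (95% interval 8.23 to 47), and its log2 fold change was 6.14 without THZ1 4 h replicate 2. KLF7 and KLF13 were lower at 24 h than at 4 h, with log2 fold changes of -1.12 and -1.88. Thus 6 members were higher and 2 lower, where 31.4% of all genes tested were higher and 35.7% lower. The split of 4543 and 5166 genes was 5750 and 3921 with upper-quartile factors, 2292 and 8175 with library totals, and 752 and 10393 with ribosomal protein mRNAs as the reference. KLF3 (-0.36, adjusted p = 0.0556) did not pass, but did without THZ1 4 h replicate 1 (-0.43) or THZ1 24 h replicate 2 (-0.49), and with library totals (-1.23) or ribosomal protein mRNAs as the reference (-2.04); it was 0.02 with upper-quartile factors. KLF9 (1.96) did not pass either, except without THZ1 4 h replicate 3 (4.67). With ribosomal protein mRNAs as the reference the 5 changes after that of KLF10 were 2.42, 1.31, 1.12, 1.46 and 0.36, the last of these, for KLF11, not called.

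With YKL-5-124, 7 members were higher at 24 h than at 4 h and none lower, where 9.22% of all genes tested were higher and 11.9% lower. The split of 1333 and 1716 genes was 1583 and 1398 with upper-quartile factors, 2286 and 1044 with library totals, and 6753 and 133 with ribosomal protein mRNAs as the reference. The largest was KLF4, at 51.4 ± 2.1 CPM at 24 h, against 20.5 ± 3.7 CPM at 4 h (log2 fold change 1.33 ± 0.15, adjusted p = 3.68e-05). KLF6 (1.09), KLF5 (0.94) and KLF4 were called whichever library was left out. The calls of KLF2 (1.27), KLF10 (0.64), KLF3 (0.54) and KLF13 (0.52) were each lost without some libraries of the 6, so that 3 to 6 members remained called. Without YKL-5-124 24 h replicate 1, 3 members were called, and 4 were called without YKL-5-124 24 h replicate 2 or any 1 of the YKL-5-124 4 h libraries.

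Length of the gene body ran in parallel with the THZ1 response among these 10 genes. In the table's coordinates (GRCh38), KLF2 (ENSG00000127528) lies at chr19:16324817-16327874, KLF4 (ENSG00000136826) at chr9:107484852-107490482 and KLF5 (ENSG00000102554) at chr13:73054976-73077542. KLF6 (ENSG00000067082) lies at chr10:3775996-3785281, KLF7 (ENSG00000118263) at chr2:207074137-207167267 and KLF3 (ENSG00000109787) at chr4:38664196-38701042. KLF9 (ENSG00000119138) lies at chr9:70384597-70414624, KLF10 (ENSG00000155090) at chr8:102648779-102655902, KLF11 (ENSG00000172059) at chr2:10042849-10054836 and KLF13 (ENSG00000169926) at chr15:31326855-31435665. At THZ1 4 h the Spearman correlation across the members between span and log2 fold change was 0.78, against 0.11 across 12212 protein-coding genes. KLF2, with a span of 3.06 kb, fell most, and KLF7 and KLF13, with 93.1 and 109 kb, fell least. KLF9, with 30 kb, departed from this order at -3.71. At THZ1 24 h the correlation was -0.7, against -0.09 across protein-coding genes. KLF7 and KLF13 were among the 3 members called lower there. KLF10, KLF6 and KLF5, with 7.12, 9.29 and 22.6 kb, were called higher under TMM. KLF2, the shortest, stood below them at -0.69. For YKL-5-124 the values were 0.33 at 4 h and -0.37 at 24 h. These are descriptions of 10 genes measured in the same libraries, and the part of length in the result was not tested.

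**Figure D5:**
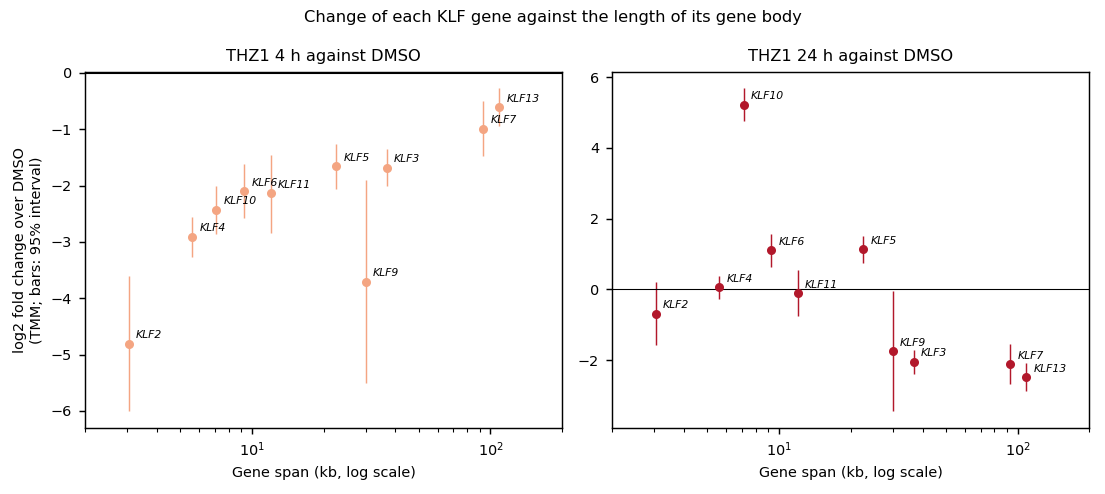
Log2 fold change over DMSO (TMM, 95% intervals) of each KLF gene against its gene span in kb on a log axis, for THZ1 4 h and THZ1 24 h. At 4 h the change runs from -4.81 for KLF2 at 3.06 kb to -0.61 for KLF13 at 109 kb; at 24 h KLF13 is lowest at -2.49, and the values of KLF4, KLF5 and KLF6 near or above 0 fall to 0.00 or below it with library totals or ribosomal protein mRNAs as the scale.

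Over the 15 libraries the members formed similar patterns in subsets. The Pearson correlation of log2 CPM was 0.947 for KLF5 with KLF6, 0.896 for KLF2 with KLF4 and 0.856 for KLF6 with KLF10. KLF7 correlated at 0.922 with KLF13 and at 0.92 with KLF3, and at -0.646 with KLF10. Among 9131 other protein-coding genes averaging 5 CPM or more, those most like KLF10 were GADD45A (0.992) and SETDB2 (0.992). KLF5 was most like NFKBIA (0.985) and HBEGF (0.977), and KLF6 most like TNFAIP3 (0.97) and HBEGF (0.969). KLF4 correlated at 0.971 with TRAF4. For KLF2 these were GATA2 (0.942) and LCMT2 (0.939), for KLF11 C5orf45 (0.944) and MYC (0.918), and for KLF9 PLK3 (0.934) and RBM48 (0.922). KLF3 was most like ZBTB21 (0.982) and ZNF212 (0.98), KLF7 most like AXIN1 (0.974) and DLC1 (0.971), and KLF13 most like ZNF300 (0.977) and CNOT6L (0.974). All points share the libraries and the 5 groups, so these correlations describe a pattern and carry no p.

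The other 17 KLF and SP genes included 9 that passed the filter on low counts. At THZ1 4 h 6 of the 9 were lower and 0 higher, where 25.1% of all genes tested were lower and 16.9% higher, and their median was -1.34. The 6 include SP5, with 2 counts at THZ1 4 h against 29 in DMSO. SP5 passed the filter on low counts through YKL-5-124 and DMSO libraries alone, so its call as lower is no independent support. At THZ1 24 h 7 were lower and 1 higher, where 44% of all genes tested were lower and 32.3% higher, and their median was -1.65, against -0.37; with library totals or ribosomal protein mRNAs as the reference all 9 were lower. KLF15, a metabolic regulator, had a log2 fold change of -3.7 ± 0.28 at THZ1 4 h and SP6, a factor of skin and tooth development, -2.08 ± 0.24. At THZ1 24 h the ubiquitous activator SP1 fell by 3.7 and its relative SP4 fell by 3.25 on the log2 scale, and both were lower under every scaling. KLF15 was called higher at 0.51 there under TMM and lower at -0.62 with library totals. At YKL-5-124 4 h none was called by edgeR and 1 by DESeq2. At YKL-5-124 24 h KLF15 was called lower (-0.94 ± 0.22, adjusted p = 0.00632) and none higher; with ribosomal protein mRNAs as the reference KLF15 was not called (-0.35, adjusted p = 0.402). The list had 1 gene called higher with that reference and 1 with library totals.

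Of 23 cofactors and regulators of KLF proteins, all tested, 4 were higher and 9 lower at THZ1 4 h, and 6 higher and 15 lower at THZ1 24 h. The shares over all genes tested were 16.9% higher and 25.1% lower at THZ1 4 h, and 32.3% higher and 44% lower at THZ1 24 h. With library totals the counts were 2 higher and 12 lower at THZ1 4 h and 2 higher and 17 lower at THZ1 24 h, and with ribosomal protein mRNAs as the reference 0 and 13 at THZ1 4 h and 1 and 21 at THZ1 24 h. The corepressor scaffold SIN3A had a log2 fold change of -1.45 ± 0.15 at THZ1 4 h, and MAPK7, the ERK5 kinase upstream of KLF2 and KLF4 in endothelial cells, -1.6 ± 0.36. The deacetylase HDAC1 was higher at 0.68 at THZ1 4 h and 2.7 at THZ1 24 h, and the acetyltransferase KAT2B at 0.68 and 2.31. With ribosomal protein mRNAs as the reference only the HDAC1 value at 24 h was still called (0.52). SMURF2, a ubiquitin ligase, had -2.79 and CREBBP, an acetyltransferase, -2.26 at THZ1 24 h; CREBBP was not called with upper-quartile factors (adjusted p = 0.0505). At YKL-5-124 24 h MEF2A was higher (0.48), and CTBP1 and USP10 were lower at -0.3 each, calls that ended with upper-quartile factors and library totals and, for CTBP1, with RLE factors. With ribosomal protein mRNAs as the reference these 2 values were 0.28 and 0.29, not called.

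Of 30 genes reported as KLF targets in other cell systems, 23 were tested. At THZ1 4 h 3 were higher and 8 lower, at THZ1 24 h 8 higher and 9 lower, and at YKL-5-124 24 h 6 higher and 3 lower. Over all genes tested the shares higher and lower were 16.9% and 25.1% at THZ1 4 h, 32.3% and 44% at THZ1 24 h, and 8.92% and 12.7% at YKL-5-124 24 h. With library totals the counts of targets were 0 higher and 9 lower at THZ1 4 h, 2 and 12 at THZ1 24 h, and 7 and 2 at YKL-5-124 24 h. With ribosomal protein mRNAs as the reference they were 0 and 12 at THZ1 4 h, 0 and 19 at THZ1 24 h, and 13 and 1 at YKL-5-124 24 h. The cell cycle inhibitor CDKN1A, a target of KLF4 and KLF6 elsewhere, rose at YKL-5-124 24 h to 155 ± 14.3 CPM, against 42.1 ± 10.2 CPM in DMSO (log2 fold change 1.88 ± 0.21, adjusted p = 2.92e-05). CCNE1 had -0.61 there, a call that ended with upper-quartile factors (adjusted p = 0.0613) and library totals (adjusted p = 0.0629). With ribosomal protein mRNAs as the reference CCNE1 had -0.03 there, not called. S1PR1, a target of KLF2 in T cells, had -1.9 there and -1 at YKL-5-124 4 h (adjusted p = 0.0275). At THZ1 4 h CDKN1B had -2.69 and PDGFA -2.37, while LGALS3 (0.5) and TAGLN (0.35) were higher, calls that ended with library totals; with ribosomal protein mRNAs as the reference they were -0.01 and -0.16. At THZ1 24 h the cyclin genes CCNB1 and CCNE1 had -3.38 and -2.73, lower under every scaling. PDGFA (2.67) and TAGLN (2.49) were higher there and were not called with ribosomal protein mRNAs as the reference.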

How the data were processed

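Total RNA of PATU-8988T cells was sequenced in 15 libraries, 3 in each of 5 groups taken from the labels. The authors deposited raw counts, not normalized, in 1 table of genes by libraries. Per the submitters' processing notes, which state no roles, the tools were featureCounts 1.5.0-p3, STAR 2.6.1d and DESeq2 1.24.0, with GRCh38. The sources used here do not give the strand setting of the counting, so reads of KLF3 and its antisense gene cannot be told apart. Positions and exonic lengths came from the table.

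Of 58676 genes, 30731 had counts and 14461 passed the filter of edgeR's filterByExpr at a minimum count of 10 and a total of 15, with 99.9% of the counts kept; all 10 KLF members passed, KLF9 with 6 libraries over the minimum. The quasi-likelihood F test of edgeR 4.0.16 in R 4.3.3 was run on all 15 libraries with group as the factor, TMM scaling and Benjamini-Hochberg adjustment over all genes tested at 0.05, for 8 comparisons and the compound by time interaction. Standard errors and 95% intervals are from that fit. Depth was 15567057 to 22869590 counts; ratios of few counts have exact 95% intervals that cover counting error only. On simulated data of 13829 genes, all groups were drawn from the DMSO means and 200 genes were changed at THZ1 4 h, equally often up and down. The test against DMSO recovered 97% of the 4-fold and 74% of the 2-fold changes. Genes at low levels in DMSO, such as KLF9, were not among those changed. The simulation therefore does not cover such genes, or the dependence on scaling where many genes change.

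Members and gene lists were chosen with earlier results of these data known. All members are named; other genes are named as the 2 protein-coding genes most correlated with each member (mean of at least 5 CPM), and as up to 2 rises and 2 falls of largest change per list and DMSO comparison (adjusted p under 0.05, mean of at least 1 CPM); a few genes under this rule are not reported here. SP and cofactor genes and targets come from lists written from textbook knowledge. Alternatives were RLE, upper-quartile, library-total and ribosomal protein (88 genes) scaling, no filter, DESeq2 1.42.0, a replicate block, the slope of log2 CPM on log2 exonic length centred within groups as a covariate, only the groups compared, and leaving out each library. Replicates differed by more than counting noise (3.99 to 74.6 as chi-square over its degrees of freedom), and each counts as 1 library. Promoter windows were matched by symbol: 8 of 10 members had at least 1 window and 5 had exactly 1.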

Additional observations from a re-analysis of the deposited data

Results flagged for a closer look

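For 9 of the 10 members the difference between THZ1 and YKL-5-124 changed between 4 h and 24 h by the interaction test of edgeR, where 26.6% of all genes tested had a positive and 31% a negative interaction. The interaction is the log2 difference of THZ1 over YKL-5-124 at 24 h minus that at 4 h. It was 7.02 for KLF10, whose log2 differences were 5.13 at 24 h and -1.89 at 4 h. It was 2.84 for KLF2 (4.86 without THZ1 4 h replicate 2), 2.12 for KLF6, 1.85 for KLF5, 1.64 for KLF4 and 2 for KLF11, each of them lower relative to YKL-5-124 at 4 h than at 24 h. It was -2.4 for KLF13, -1.42 for KLF7 and -0.9 for KLF3, each lower relative to YKL-5-124 at 24 h than at 4 h. The split of 3842 positive and 4489 negative interactions over all genes tested was 1558 and 7917 with library totals. It was 197 and 11371 with ribosomal protein mRNAs as the reference. With that reference 4 of the 10 were called, and KLF4, KLF5, KLF6 and KLF11 had values of -0.69, -0.53, -0.28 and -0.40. Over 6 settings (TMM, the other scalings and DESeq2) KLF2 (0.46 to 3.16) and KLF11 (-0.4 to 2.31) were each called in 4. KLF4, KLF5 and KLF6 were each called in 5, and KLF3, KLF7, KLF10 and KLF13 in all 6.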

How the results depend on the processing

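The number of members called stayed within 1.5 times its value under every alternative for THZ1 4 h against DMSO, for both comparisons between the compounds and for the times of THZ1. After 4 h of YKL-5-124, 0 members were called by edgeR and 1 with library totals, 1 with ribosomal protein mRNAs as the reference, 4 without the filter, 4 with DESeq2, 3 with the replicate block, 7 with the length slope and 1 with only the groups compared. For YKL-5-124 24 h against DMSO, 2 members became 4 with ribosomal protein mRNAs and 1 without the filter; for THZ1 24 h against DMSO, 6 became 10 with ribosomal protein mRNAs; for the interaction, 9 became 4. Leaving out 1 library gave 10 to 10 members for THZ1 4 h, 6 to 7 for THZ1 24 h, 0 to 0 for YKL-5-124 4 h, 1 to 2 for YKL-5-124 24 h, 8 to 9 between the compounds at each time, 8 to 9 for THZ1 24 h against 4 h, 3 to 6 for YKL-5-124 24 h against 4 h and 9 to 9 for the interaction. Directions of values called in either fit turned in comparisons that hold THZ1 24 h. Against DMSO, library totals gave KLF4 -1.08 and KLF6 -0.03, and ribosomal protein mRNAs gave KLF4 -2.16, KLF5 -1.07 and KLF6 -1.09. Against YKL-5-124 24 h, library totals gave KLF5 -0.73, KLF6 -0.30 and KLF11 -0.76, and ribosomal protein mRNAs gave KLF5 -2.25, KLF6 -1.79 and KLF11 -2.31. In the interaction, ribosomal protein mRNAs gave KLF4 -0.69, KLF5 -0.53, KLF6 -0.28 and KLF11 -0.40. The median over all genes tested moved at THZ1 24 h by 0.33 with RLE factors, 0.4 with upper-quartile factors, -1.12 with library totals and -2.19 with ribosomal protein mRNAs, and at THZ1 4 h by -0.25 and -0.51 with the last 2 of these. At YKL-5-124 24 h library totals moved it by 0.15 and ribosomal protein mRNAs by 0.58. For all genes tested the count at YKL-5-124 4 h was 75, and 190 without the filter, 377 with DESeq2, 140 with the replicate block, 932 with the length slope, 15 with only the groups compared and 8 to 72 with a library left out; the cause was not tested. At YKL-5-124 24 h all genes tested gave 3129 calls, and 5278 with ribosomal protein mRNAs, 5963 with the length slope and as few as 1932 with a library left out. Between the compounds at 4 h the length slope gave 7629 of all genes tested, against 4821, and for YKL-5-124 24 h against 4 h it gave 5927 and ribosomal protein mRNAs gave 6886, against 3049. Libraries with the same replicate number did not deviate together throughout: 14 of 24 pairs correlated over 0.1, from -0.39 to 0.45, and 8 of 15 libraries correlated best with their own number. KLF2 and KLF9 rest on few counts at THZ1 4 h, so depth limits how precisely their decreases are known.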
